A study of Schmidtea mediterranea with 5 samples.

Results

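Whole planarian flatworms exposed to light for 8 days were compared with untreated animals kept in the dark, using the 2 libraries of the series that hold these conditions out of 5 in all. Both libraries came from whole animals of Schmidtea mediterranea, strain CIW4, which is asexual and clonal. The dark control, whose title gives control WT (wild-type) animals, had no treatment. The light library was taken at the end of the 8 days, when the animals had lost their pigment according to the sample titles and the design text. The labels' growth protocol gives 1 week of starvation before collection. Whether the animals exposed to light were starved for longer is not given. The other 3 libraries held animals that spent 1, 2 or 8 further days in the dark after the same light exposure; they enter here only to set the abundance of each transcript and to show its later level. Each library pooled 3 biological replicates before sequencing, so the spread between animals was not measured. No test between conditions is possible with 1 library a group, and no p-value is given. A treatment protocol on RNA interference and amputation accompanies the samples, does not match their titles, and was not used.

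Planarian pigment cells lie beneath the epidermis and make porphyrin and ommochrome pigments, the former by the heme synthesis pathway and the latter from tryptophan. Prolonged light exposure depletes these cells and bleaches the animal, and the cells are renewed from stem cells. In RNA from whole animals, fewer cells of a type and less RNA per cell cannot be told apart. The deposited table gives numbers of assembled transcripts (contigs) and pairs none of them with a gene name. The lists of pigment synthesis, pigment lineage and cell type genes could therefore not be applied, the labelled tissue could not be checked against markers, and no gene or cell type is named.

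The unit was CPM, the reads of a transcript per 1000000 reads of its library. The dark control held 44297819 reads and the light library 38447289, so 1 read was worth 0.023 and 0.026 CPM. Where no read was found, the level could still be up to 0.068 CPM in the control and 0.078 CPM in the light library (3 reads). Of 82843 transcripts, the 21307 that averaged 1 CPM or more across all 5 libraries were compared by the log2 ratio of CPM + 1, light over control. They held 98.6% of the control reads and 98.8% of the light reads. At the edge of this filter, the last transcript kept had a mean of 1.00 CPM, with 58 control reads and 29 light reads, and the first left out had 37 and 36 reads. Transcript lengths were not given, so abundance here is a share of reads and not a number of molecules.

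At least 2-fold lower levels in light were found for 356 transcripts (1.67% of those compared), and at least 2-fold higher levels for 137 (0.643%). Just inside the lower threshold stood a transcript at 4.18 CPM in the control and 1.59 CPM in light, and just outside it one at 32.3 and 15.7 CPM. Just inside the higher threshold stood one at 8.51 and 18.0 CPM, and just outside it one at 114 and 228 CPM. The 95% counting interval of the ratio of CPM (exact, conditional binomial) lay wholly past 2-fold for 309 of the 356 and for 110 of the 137. Such intervals and the 3-read limits cover counting error only, and reads without molecular identifiers are not independent molecules. The lower set had a median of 14.4 CPM in the control and 4.79 CPM in light, and the higher set 9.89 and 22.4 CPM. Over all transcripts compared, the medians were 8.58 and 8.77 CPM, and the median log2 ratio was 0.04.

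**Figure D1:**
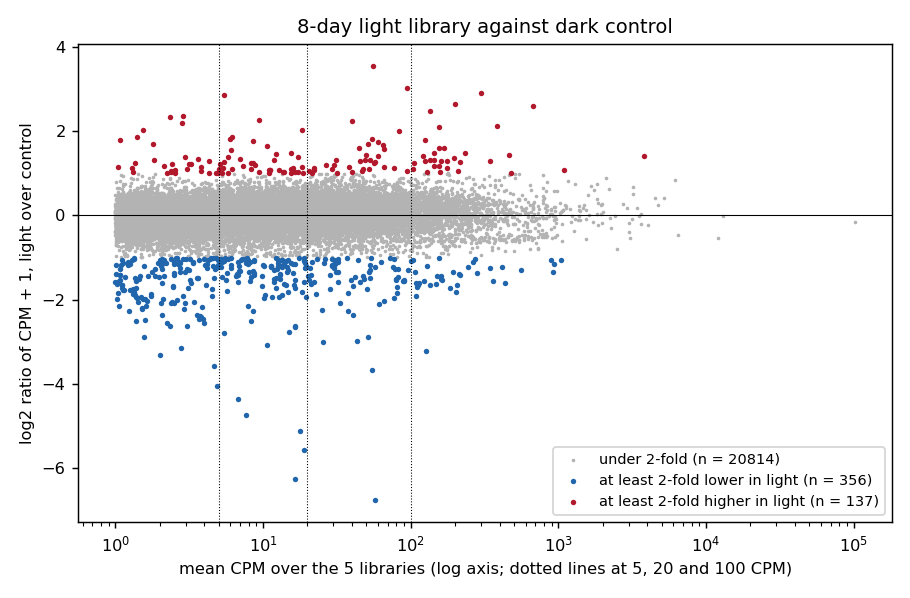
Log2 ratio of CPM + 1 (light over control) against mean CPM over the 5 libraries (log axis), 1 point per transcript, with at least 2-fold lower transcripts in blue, higher ones in red and the rest in grey. Blue points reach farther from 0 than red ones in each abundance class, by a small margin above 100 CPM (-3.22 against 2.91). Red ones are the more frequent past 4-fold above 100 CPM (6 against 1).

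The share of differing transcripts that were lower decreased from the least to the most abundant class. The percent of a class that was lower did not follow abundance and was highest above 100 CPM. The percent that was higher was lowest at 1 to 5 CPM and highest above 100 CPM. These rankings depended in part on the setting. With 0.1 CPM added in place of 1 CPM, the percent lower was highest at 1 to 5 CPM (3.61%). The percent higher was then lowest at 20 to 100 CPM (0.738%). With classes set by the dark-return libraries, the percent lower was highest at 5 to 20 CPM (1.76%). Among 8429 transcripts of 1 to 5 CPM, 145 were at least 2-fold lower (1.72%) and 30 were higher (0.356%), so 82.9% of the differing ones were lower. The share was 72.3% among 5671 transcripts of 5 to 20 CPM, with 107 lower (1.89%) and 41 higher (0.723%). It was 66.3% among 5554 transcripts of 20 to 100 CPM, with 67 lower (1.21%) and 34 higher (0.612%). Above 100 CPM the sides were close, with 37 of 1653 transcripts lower (2.24%) and 32 higher (1.94%), a share of 53.6%. When the classes were set by the 3 dark-return libraries alone, the shares were 81.3%, 71.9%, 65.0% and 46.7%. The top class then had more higher than lower transcripts (32 against 28). These libraries do not enter the ratio, but the lower set stayed nearer its light level in them, which can move its members to lower classes. With classes set by the mean of control and light, added after the data were seen, the shares were 80.1%, 76.7%, 66.4% and 60.8%. The top class then held 45 lower and 29 higher transcripts. The order of the classes was the same under both settings.

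At 4-fold, 58 transcripts were lower (0.272%) and 16 were higher (0.0751%), and the classes stood farther apart. In the 3 lower classes, 33, 13 and 11 transcripts were at least 4-fold lower (0.392%, 0.229% and 0.198%), against 4, 3 and 3 that were at least 4-fold higher (0.0475%, 0.0529% and 0.054%). Above 100 CPM 1 transcript was at least 4-fold lower (0.0605%) and 6 were higher (0.363%). The class mean includes the light and dark-return libraries, so a transcript high in the control alone can fall into a lower class. A transcript at 262 CPM in the control and 1.40 CPM in light, for example, had a mean of 57.6 CPM. The 4-fold counts by class are given for this class setting only. At 1.5-fold 1138 transcripts were lower (5.34%) and 744 were higher (3.49%). The sides were uneven in the lowest class, with 449 lower (5.33%) and 151 higher (1.79%), and in the next, with 325 (5.73%) and 229 (4.04%). They were near even in the upper 2 classes, with 238 lower (4.29%) and 248 higher (4.47%) at 20 to 100 CPM and 126 (7.62%) and 116 (7.02%) above it.

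**Figure D2:**
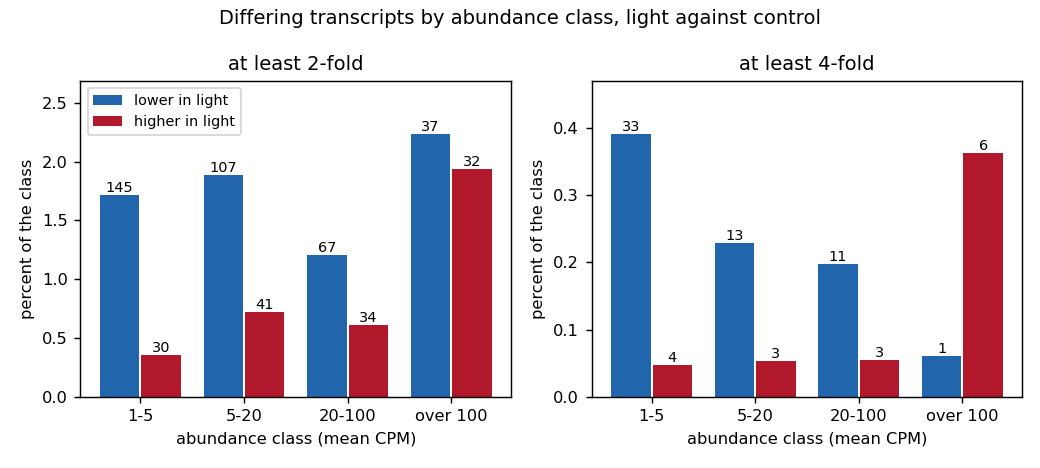
Percent of each abundance class (by mean CPM over the 5 libraries) that was at least 2-fold (left) or at least 4-fold (right) lower (blue) or higher (red) in light; the number above each bar is the count of transcripts. Lower transcripts lead in every class at 2-fold, by 145 against 30 in the lowest class and by 37 against 32 in the highest, and higher ones lead above 100 CPM at 4-fold.

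In the lowest class, 133 of the 145 lower and 27 of the 30 higher transcripts had counting intervals wholly past 2-fold. Because 1 CPM is added before the ratio is taken, differences of low transcripts are understated. With 0.1 CPM added instead, the lowest class held 304 lower and 94 higher transcripts, a lower share of 76.4%.

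The medians of the classes lay close to 0. The median log2 ratio, light over control, was -0.04 at 1 to 5 CPM, 0.07 at 5 to 20 CPM, 0.13 at 20 to 100 CPM and 0.06 above 100 CPM, and 44.4%, 57.3%, 65.4% and 56.7% of the transcripts of these classes stood above 0. For the 2-day over the 1-day dark-return library, the pair with the fewest 2-fold differences, the medians were -0.03, 0.01, -0.004 and -0.02, with 43.4%, 54.2%, 48.4% and 40.4% above 0. The lowest class thus had nearly the same median and share in both pairs, and the 20 to 100 CPM class had the widest gap between them. The interquartile range of the log2 ratio, light over control, was 0.39, 0.46, 0.42 and 0.49 from the lowest class to the highest. Read counting alone (Poisson) would give ranges of 0.20, 0.12, 0.068 and 0.033. For the 1-day and 2-day pair the ranges were 0.22, 0.16, 0.11 and 0.099, and the 2-fold counts were 9, 2, 1 and 0 in all. The spread exceeded the counting spread in both pairs and was wider for light over control in each class. How much of it pools of animals kept alike would show was not measured.

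From control to light, 11.0% of all reads changed transcript: the summed gains, which equal the summed losses because CPM is a share of a fixed total, came to 11.0% of a library. Losses were the more concentrated. Of 41482 transcripts with a lower level in light, 140 held 50% of the reads lost, and of 39519 with a higher level, 310 held 50% of the reads gained. The first transcript alone held 9.44% of the loss, at a ratio of CPM of 0.904, and the first gaining one 5.11% of the gain. With these included, the first 10 held 22.4% of the loss and 15.3% of the gain, and the first 100 held 44.8% and 36.4%. Of these first 100, 27 of the losing and 20 of the gaining transcripts differed by 2-fold or more.

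Most reads moved by small ratios. Transcripts that differed by less than 1.2-fold held 24.4% of the loss and 21.6% of the gain, and those from 1.2- to 1.5-fold held 38.7% and 41.5%. Those from 1.5- to 2-fold held 17.7% and 22.0%. The 356 transcripts at least 2-fold lower held 16.1% of the loss, which is 1.78% of the library, and the 137 higher ones 12.9% of the gain, or 1.42% of the library. Transcripts past 4-fold in either direction held 2.06% of the loss and 2.61% of the gain. The 58 transcripts at least 4-fold lower therefore accounted for 0.227% of a library, and the 16 higher ones for 0.288%.

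**Figure D3:**
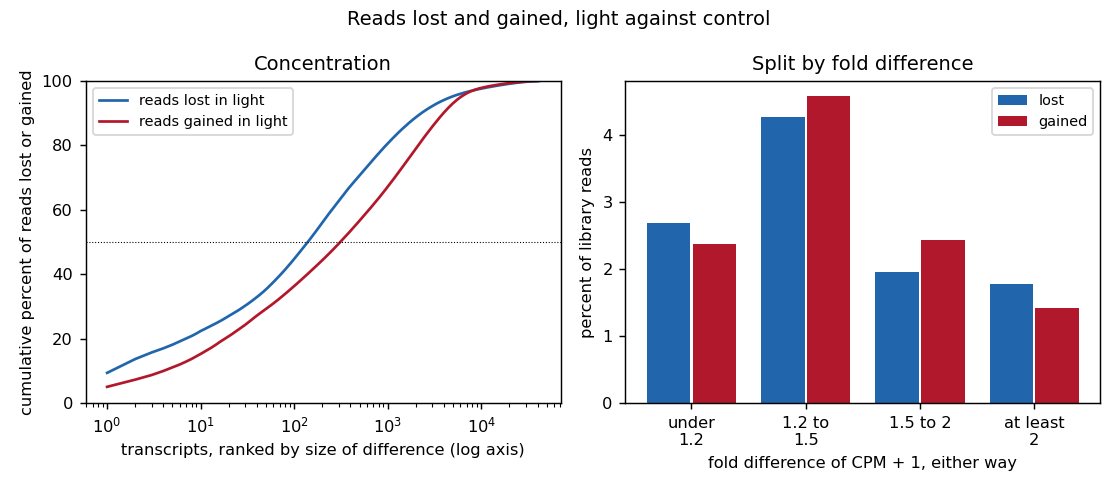
Left, cumulative percent of the reads lost (blue) and gained (red) in light against the rank of the transcript by the size of its difference in CPM (log axis); 140 transcripts reach 50% of the loss and 310 reach 50% of the gain. Right, reads lost and gained, in percent of the library, by the fold difference of the kept transcripts; those at least 2-fold apart hold 1.78% and 1.42%.

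By abundance, transcripts above 100 CPM held 69.6% of the loss and 61.2% of the gain, and those of 20 to 100 CPM held 18.3% and 28.4%. The class of 20 to 100 CPM took 24.3% of the control reads and 25.4% of the light reads, a net gain of 1.11% of the library. The class above 100 CPM went from 66.3% to 65.4%, a net change of -0.920%. This class includes the most abundant transcript of both libraries, which held 10.8% of the control reads and 9.80% of the light reads and 9.44% of all reads lost. Its ratio of CPM was 0.904, and it held 9.21%, 10.6% and 10.9% of the reads of the dark-return libraries. Without it the class above 100 CPM had a net change of 0.121% of the full library, from 55.4% to 55.6%. All transcripts but that one went from 89.2% to 90.2%, a net change of 1.04%, because shares are of a fixed total. The 0.121% therefore does not show that the net loss of the class came from that transcript alone. The 61536 transcripts under the filter held 1.36% of the control reads and 1.25% of the light reads.

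Across all 10 pairs of libraries, the share of reads that changed transcript ran from 3.28% to 11.0%. Light against control was the highest pair, and the other 3 pairs with the dark control stood at 10.6%, 9.48% and 8.06% for the 1-, 2- and 8-day dark-return libraries. These 4 share the control library. The 6 pairs without the control ran from 3.28% to 6.94%.

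Among transcripts at least 2-fold apart, the 2 largest gains and the 2 largest losses of reads all belonged to contigs above 100 CPM. SmedASXL_012104 measured 3375 CPM in the control, 9005 CPM in light and, from the first dark-return library to the last, 2160, 2162 and 2224 CPM. It was high in the light library alone, and the 3 later libraries lay within a narrow range under the control. Its ratio of CPM was 2.67 (95% counting interval 2.65 to 2.68), and by itself it held 5.11% of all reads gained. Without it the remaining 136 transcripts of the higher set took 0.455% of the control reads and 1.31% of the light reads, instead of 0.792% and 2.21% with it. Whether this peak belongs to the condition or to 1 pool was not tested.

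SmedASXL_042310 stood at 179 CPM in the control, 1084 CPM in light and 709, 698 and 723 CPM in the 1-, 2- and 8-day dark-return libraries. All 4 libraries after light exposure lay above the control, with light the highest. Its ratio of CPM was 6.07 (5.93 to 6.22).

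SmedASXL_004239 stood at 1874 CPM in the control, 735 CPM in light and 781, 697 and 489 CPM in the 3 dark-return libraries. The control alone was high, and the lowest level came in the last library. It was 2.55-fold lower in light (2.51 to 2.58). SmedASXL_009678 stood at 1716, 764, 808, 804 and 609 CPM in the same order of libraries, with the same ranking of control and last library, and was 2.24-fold lower in light (2.21 to 2.28). The contig with the next number stood at 1640, 786, 762, 759 and 522 CPM and was also among the 10 largest losses. The level of SmedASXL_009678 was 0.973 to 1.17 times that of this neighbour through the 5 libraries, and whether they share reads was not tested.

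**Figure D4:**
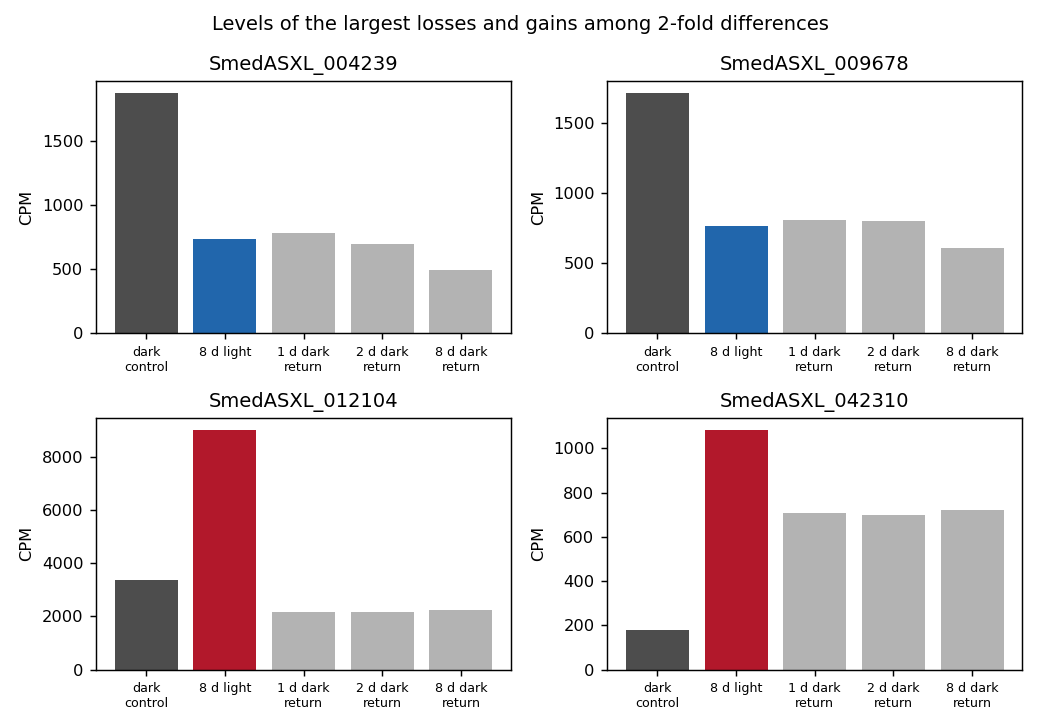
CPM of 4 transcripts in the 5 libraries, 1 bar per library, each a pool with no replicate; the control is dark grey, light is blue or red, and the dark-return libraries are light grey. SmedASXL_012104 is high in light only (9005 CPM), and the other 3 stay on 1 side of the control in all 4 later libraries.

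Each abundance class was also described by its leading transcript in each direction, in the ratio of CPM + 1. In the class of 1 to 5 CPM, the lowest in light had 881 reads in the control (19.9 CPM) and 10 in light (0.260 CPM), and stood at 0.722, 0.699 and 2.92 CPM in the dark-return libraries. It was 76.5-fold lower in CPM (41.4 to 160). At 5 to 20 CPM the lowest in light was the first of the transcripts close to absent in light, given below. At 20 to 100 CPM the lowest in light had 11590 reads in the control (262 CPM) and 54 in light (1.40 CPM). It stood at 3.31, 4.64 and 17.0 CPM later and was 186-fold lower in CPM (143 to 248). Its ratio of CPM + 1 was the most extreme of all transcripts compared. Above 100 CPM the lowest in light stood at 343 CPM in the control, 36.0 CPM in light, and 70.1, 74.7 and 107 CPM later, and was 9.53-fold lower (9.02 to 10.1). It was the 1 transcript of that class past 4-fold on the lower side.

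On the higher side, the leading transcript above 100 CPM stood at 66.5 CPM in the control, 507 CPM in light and 362, 358 and 210 CPM later, a ratio of 7.63 (7.34 to 7.93). The 6 transcripts at least 4-fold higher in that class had ratios of CPM from 4.36 to 7.63, on 1848 to 7908 control reads and 9182 to 41691 light reads. All 6 remained above their control level in each of the 3 later libraries. At 20 to 100 CPM the leader stood at 8.51 CPM in the control and 111 CPM in light, a ratio of 13.0 (11.7 to 14.5). Its later levels were 79.6, 68.4 and 11.5 CPM. The leaders of the classes of 1 to 5 CPM and 5 to 20 CPM stood at 0.451 and 0.880 CPM in the control and at 6.48 and 12.8 CPM in light, ratios of 14.3 (9.09 to 23.9) and 14.5 (10.5 to 20.7). These leaders carry adjacent contig numbers, and the level of the first was 0.513, 0.507, 0.498, 0.604 and 0.606 of that of the second through the 5 libraries.

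Adjacent numbers occurred more widely in the differing sets. Of the 289 lower transcripts that had a compared transcript at the next or previous number, 43 (14.9%) had a neighbour that was also at least 2-fold lower. Among all 16773 compared transcripts with such a neighbour, 468 (2.79%) had one that was at least 2-fold lower. Of 101 higher transcripts, 7 (6.93%) had a higher neighbour, beside 169 of the 16773 (1.01%). In each set 3 had a neighbour in the opposite set. The sources used here do not say what the numbering follows, and contigs that share sequence could share reads. Counting a run of adjacent numbers once would leave 332 lower and 133 higher entries.

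Transcripts close to absent in 1 of the libraries were almost all absent from light. With at most 3 reads in one library and at least 1 CPM in the other, 4 of the compared transcripts (0.0188%) were close to absent in light and 0 in the control. The first had 3446 reads in the control (77.8 CPM), 1 read in light, and 29, 4 and 172 reads in the dark-return libraries. The second had 397 reads in the control (8.96 CPM), 0 in light, and 7, 13 and 34 reads later. Against a floor of 3 reads in light it was at least 115-fold lower. The third had 162 reads (3.66 CPM), 2 reads, and then 26, 18 and 29 reads, and its CPM was 70.3-fold lower in light (19.2 to 585). The fourth had 107 reads (2.42 CPM), 1 read, and then 40, 57 and 116 reads, which after 8 days was 2.42 CPM, its control level. The other 3 stood at 3.58, 0.708 and 0.604 CPM in that library, all below their control.

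The filter bears on this count, since a transcript found only in the control needs about 5 CPM there to reach a mean of 1 CPM. Without the filter, 42 of 82843 transcripts (0.0507%) were close to absent in light and 3 (0.00362%) in the control. The light library is the smaller of the 2, so at most 3 reads there allows a slightly higher CPM than in the control. The 42 had control levels of 1.02 to 77.8 CPM with a median of 1.47 CPM, and 11 of them had 0 reads in light. Their median was 0.039 CPM in light and 0.245, 0.220 and 0.302 CPM in the 3 dark-return libraries. More than 3 reads were found again for 35, 34 and 41 of them. After 8 days 2 of the 42 had reached at least 50% of their control level, and 1 had at most 3 reads in all 4 libraries other than the control.

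The 3 transcripts close to absent in the control had 1, 2 and 2 reads there and 55, 55 and 79 reads in light, at 1.43, 1.43 and 2.05 CPM. Their medians were 0.862, 0.480 and 0.0833 CPM after 1, 2 and 8 days, so the level was lower at each later time. Their ratios of CPM rest on those few control reads and have wide counting intervals, the widest from 10.9 to 2548.

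**Figure D5:**
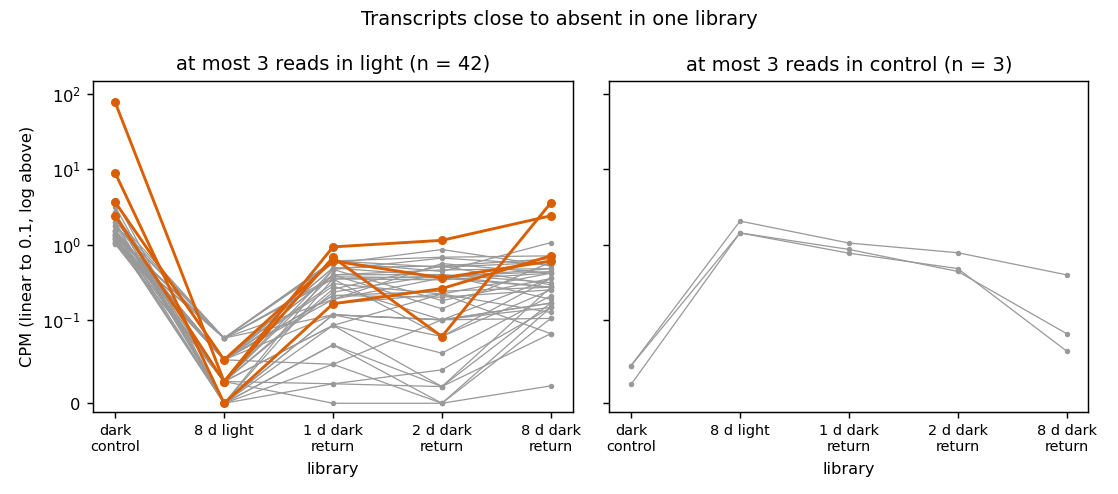
CPM in the 5 libraries (linear to 0.1 CPM, log above) of each transcript with at most 3 reads in light (left, n = 42) or in the control (right, n = 3) and at least 1 CPM in the other; orange lines are the 4 that averaged 1 CPM or more across all 5 libraries and grey lines the rest. Levels on the left are near 0 in light, and 41 of 42 are again over 3 reads after 8 days in the dark.

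The differing sets were chosen on the control and light libraries, so their later levels are given as a description. The lower set took 2.81% of the control reads, 1.03% of the light reads, and 1.15%, 1.17% and 1.45% of the reads after 1, 2 and 8 days in the dark. By class its median level after 8 days was 1.69 CPM at 1 to 5 CPM, beside 4.76 CPM in the control and 0.832 CPM in light. It was 9.56 CPM at 5 to 20 CPM, beside 20.6 and 5.77 CPM. It was 34.9 CPM at 20 to 100 CPM, beside 83.5 and 23.8 CPM, and 183 CPM above 100 CPM, beside 343 and 121 CPM. In each class the 8-day median lay between those of light and control. The higher set likewise had 8-day medians between the 2 libraries in each class, at 1.91, 9.31, 45.6 and 176 CPM, beside 1.00, 4.70, 22.0 and 77.8 CPM in the control and 3.89, 12.8, 59.8 and 228 CPM in light.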

How the data were processed

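RNA from 5 pooled whole-animal libraries was poly(A)-selected per the labels' protocols. Reads were trimmed by 15 bases and aligned to an assembled transcriptome per the series' design text, with bcl2fastq 1.8.3 and Bowtie2 2.2.4 per the submitters' processing notes. The treatment of reads that match more than 1 contig, and of strand, is not given in the sources. The deposited signal is CPM + 1 per the file headers. The authors' deposited ratio column equals the quotient of the control and light columns.

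After 1 was subtracted each column summed to 1000000, and 100% of values above 0 were whole reads to within 0.001 reads, so read numbers were computed from the deposited values. A count test was not run, because 1 library a group leaves no residual degrees of freedom. Ratios were log2 of CPM + 1 (pseudocount 1 CPM) over transcripts averaging 1 CPM or more. Abundance classes used the mean over the 5 libraries. Intervals are 95% Clopper-Pearson, conditional on the 2 read counts. Python 3.11.15, pandas 2.3.3 and scipy 1.17.1 were used, and the calculation was tested on simulated data. As alternatives, TMM (a trimmed mean of log ratios) and median-of-ratios scaling used the read numbers.

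The members, classes and tests were chosen with earlier results of these data known. Named are the 2 largest losses and the 2 largest gains of CPM among transcripts at least 2-fold apart, because the table pairs no number with a gene. Leaders of each class are given without a number. The number of sample columns not used was 0.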

Additional observations from a re-analysis of the deposited data

How the results depend on the processing

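No paired analysis was possible because each condition has 1 library and the labels give no replicate numbers, and no library could be left out. Lower transcripts outnumbered higher ones under all 10 settings of the overall count, with 66.4% to 75.2% of the differing transcripts on the lower side. The setting without a filter and that with at least 1 CPM in the higher of the 2 libraries coincide by construction (436 lower, 144 higher). A 2-fold ratio of CPM + 1 requires at least 1 CPM in the higher library. The counts themselves follow the pseudocount and the filter. With 0.1 CPM added, 546 were lower and 221 higher, and with 5 CPM added, 159 and 67. Restricted to means of 5 CPM or more, 211 were lower. In the class of 1 to 5 CPM, 0.1 CPM gave 304 lower and 94 higher. TMM and median-of-ratios scaling shifted the log2 ratio by 0.004 and 0.017 and gave 358 and 351 lower transcripts and 139 and 149 higher ones. The share of reads that changed transcript was 10.7% over the compared transcripts only, 11.7% without the most abundant transcript and 11.6% without the 100 most abundant. With at most 10 reads in place of 3, 33 transcripts were close to absent in light and 3 in the control. With at least 5 CPM in the other library 2 were close to absent in light, and without the filter 42 in light and 3 in the control. Above 100 CPM, the class set by the dark-return libraries turned the excess to the higher side (28 lower, 32 higher), while the class set by the mean of control and light, added after the data were seen, held 45 lower and 29 higher. The cause of these changes was not tested beyond the construction of each setting. The ratios of the 4 named transcripts stayed within their counting intervals with 0.1 and 5 CPM added and with TMM scaling. Without replicates, differences between pools and differences between conditions cannot be told apart at any depth.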
